A study of Homo sapiens with 9 samples.

Results

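Described here are 30 human genes that encode chromatin remodellers and chromatin modifiers, out of 20037 protein-coding genes in the RefSeq table used. The genes were listed by name in 5 families. The BAF family held SMARCA4, SMARCA2, SMARCB1, SMARCC1, SMARCC2, SMARCD1, ARID1A, ARID1B, ARID2 and PBRM1. The CHD family held CHD1, CHD3, CHD4, CHD7 and CHD8, and the INO80/ISWI family held INO80, EP400, BPTF, SMARCA5 and BAZ1A. EZH2, SUZ12 and EED were the Polycomb genes, and KMT2A, KMT2D, SUV39H1, SETDB1, DNMT1, CTCF and RAD21 were grouped as other modifiers. An interval, meaning a called peak, was assigned to a gene when at least 1 bp of it lay within 1 kb of either annotated end of that gene.

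The intervals came from 6 lists, each from 1 library. In HEK293T, a line of embryonic kidney origin, CUT&Tag with an antibody to RBPJ was done in FBXO42 wild-type cells, in FBXO42 knockout cells, and in cells of the libraries titled RBPJ and RBPJK175R, which both carry the genotype label FBXO42 KO. CUT&Tag uses an antibody to bring a transposase to the DNA beside a bound protein. In cells labelled Jurkat, a leukaemic T cell line, ATAC-seq, which marks open chromatin by transposase cutting, was done in FBXO42 wild type and FBXO42 knockout. The knockouts were made with CRISPR constructs carried by lentivirus, and the sources used here give neither whether a knockout was a clone or a mixed population nor how RBPJ or RBPJK175R was introduced. The 3 IgG libraries, from FBXO42 wild type, FBXO42 knockout and cells titled RBPJ, are not analysed here. FBXO42 is an F-box protein, which brings substrates to a ubiquitin ligase, and the series asks how its loss bears on where RBPJ binds and how open chromatin is.

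RBPJ is the DNA-binding factor through which Notch signalling acts, and it switches between corepressor and coactivator complexes at its sites. The genes described here encode proteins that shape chromatin in several ways. BAF, CHD, INO80 and ISWI complexes use ATP to slide, evict or exchange histones. Polycomb proteins and the lysine methyltransferases write and read histone methylation linked to silent or active genes, DNMT1 copies DNA methylation at replication, and CTCF with cohesin folds chromosomes into loops. Most of these proteins are made in nearly all dividing cells, and their promoters are usually rich in CpG.

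The letters at the listed gene starts were read from RefSeq promoter entries (GRCh38.p14), which existed for 23 of the 30 genes, in 32 entries. The 250 bases before the listed start are shown for KMT2D and SMARCA5, whose promoters hold the core RBPJ motif TGGGAA on the minus strand of the gene (written TTCCCA in the gene's direction and printed in capitals) under called RBPJ intervals. They are shown for ARID1B because it was called in only 1 of the lists titled RBPJ and RBPJK175R, although the printed stretch with its core motif lies outside every called interval. Another ARID1B entry, chr6:156777128-156777377, lies inside the RBPJ intervals of FBXO42 wild type and knockout. It holds no core motif and is not shown. INO80 and EZH2 are shown because both were called in the list titled RBPJ and not in the list titled RBPJK175R. Their entries hold no core motif and are all in lower case. KMT2D is on the minus strand at chr12:49060795-49061044, SMARCA5 on the plus strand at chr4:143513452-143513701, ARID1B on the plus strand at chr6:156775776-156776025, INO80 on the minus strand at chr15:41116281-41116530 and EZH2 on the minus strand at chr7:148884292-148884541. For SUV39H1 only 26 bases around the core are shown, chrX:48696576-48696601 on the plus strand, since that listed start lies inside the annotated gene.
KMT2D: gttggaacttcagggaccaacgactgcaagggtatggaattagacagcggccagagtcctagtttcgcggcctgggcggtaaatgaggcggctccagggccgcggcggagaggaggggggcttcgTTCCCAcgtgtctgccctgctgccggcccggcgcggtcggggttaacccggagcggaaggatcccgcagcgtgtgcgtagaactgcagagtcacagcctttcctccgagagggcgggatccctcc
SMARCA5: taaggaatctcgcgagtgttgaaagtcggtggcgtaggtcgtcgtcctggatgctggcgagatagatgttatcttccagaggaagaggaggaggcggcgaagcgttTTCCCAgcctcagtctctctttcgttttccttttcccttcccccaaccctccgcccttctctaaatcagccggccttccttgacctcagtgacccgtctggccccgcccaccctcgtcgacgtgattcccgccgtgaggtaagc
ARID1B: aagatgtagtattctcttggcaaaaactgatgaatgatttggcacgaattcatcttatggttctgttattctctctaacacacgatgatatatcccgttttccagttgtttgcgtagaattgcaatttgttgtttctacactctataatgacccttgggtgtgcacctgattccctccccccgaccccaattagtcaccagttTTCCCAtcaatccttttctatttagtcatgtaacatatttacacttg
INO80: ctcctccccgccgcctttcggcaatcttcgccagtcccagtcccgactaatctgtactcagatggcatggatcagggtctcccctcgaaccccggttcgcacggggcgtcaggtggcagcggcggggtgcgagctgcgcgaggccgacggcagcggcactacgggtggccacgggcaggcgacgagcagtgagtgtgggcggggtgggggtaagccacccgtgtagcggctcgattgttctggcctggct
EZH2: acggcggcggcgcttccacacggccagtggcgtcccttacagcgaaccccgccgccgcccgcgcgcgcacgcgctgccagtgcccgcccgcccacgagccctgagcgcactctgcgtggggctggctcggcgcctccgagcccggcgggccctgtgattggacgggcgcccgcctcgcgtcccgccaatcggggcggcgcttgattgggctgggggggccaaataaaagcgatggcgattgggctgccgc
SUV39H1: agacgcactcTGGGAAagcgcggcga

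The core TGGGAA, searched on both strands in the 250 bases before and 50 bases after each listed start, occurred in 5 of 32 member promoters (15.6%) and in 22.7% of 22183 promoters of protein-coding genes. The 5 were KMT2D, SMARCA5, SUV39H1, ARID1B and SMARCB1. In KMT2D the core begins at -125 from the start and lies inside the RBPJ intervals of FBXO42 wild type, FBXO42 knockout and titled RBPJ. It also lies inside both ATAC intervals. The summits of the 3 RBPJ intervals were 20 to 101 bp from the core. The titled RBPJK175R interval at KMT2D stops short of it. In SMARCA5 the core at -144 lies inside the intervals of all 6 lists, and the 4 RBPJ summits were 39 to 139 bp away. The SUV39H1 core at -148 was covered by 3 RBPJ intervals and 1 ATAC interval. The cores of ARID1B (-47) and SMARCB1 (-179) were covered by no interval. The longer form GTGGGAA was present only in the KMT2D entry among the 32, against 6.01% of all promoters. 3 other promoter words, searched the same way on both strands, had no overlap with the core matches. CCGGAAG was in 4 of 32 member promoters (12.8% of all), GCGCATGC in 1 (3.74% of all) and CCAAT in 9 (34.7% of all). The member promoters had a median GC content of 67.5%, against 62.3% over all promoters. A match is a stretch of letters, and its use by any factor was not measured.

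The lists differed in length and depth, from 19913 to 42656 intervals over 9.86 to 35.4 Mb. Depth was read from the lists themselves as the most frequent local background of a list, called its lowest background here. It was 1.77 and 1.63 reads in the RBPJ lists of FBXO42 wild type and knockout, and 1.26 and 0.675 in titled RBPJ and RBPJK175R. In the ATAC lists of wild type and knockout it was 0.417 and 0.184. Of 14 T cell markers, 1 had a gene-end interval in the wild-type ATAC list (ZAP70) and 0 in the knockout ATAC list. Of 11 embryonic kidney and epithelial markers, 6 had one in each. The shares over all protein-coding genes were 56.3% in wild type and 42.7% in the knockout. The T cell counts were below these shares in both lists, and the kidney and epithelial count was near that share in wild type. No cell type was read from these counts, and the ATAC libraries are called by their label only. Because each group had 1 library, no difference between lists has a replicate check and no p-value was computed.

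The share of members with an interval was above that of all protein-coding genes in each list, from 96.7% against 54.2% for RBPJ in FBXO42 wild type to 53.3% against 42.7% for ATAC in FBXO42 knockout. 10 of the 30 had an interval in all 6 lists (17.5% of all protein-coding genes did): SMARCA2, SMARCC1, CHD1, CHD8, SMARCA5, EED, KMT2A, KMT2D, SETDB1 and DNMT1. A further 6 were in 5 lists, 9 in 4 lists and 4 in 3 lists. In the 4 RBPJ lists together, 17 of 30 members were called in every list, against 21.1% of all genes. SMARCB1, which encodes a core BAF subunit, was the only member without an interval in any list. Its nearest interval in any list was 23352 bp from an annotated end, and none lay inside the gene.

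**Figure D1:**
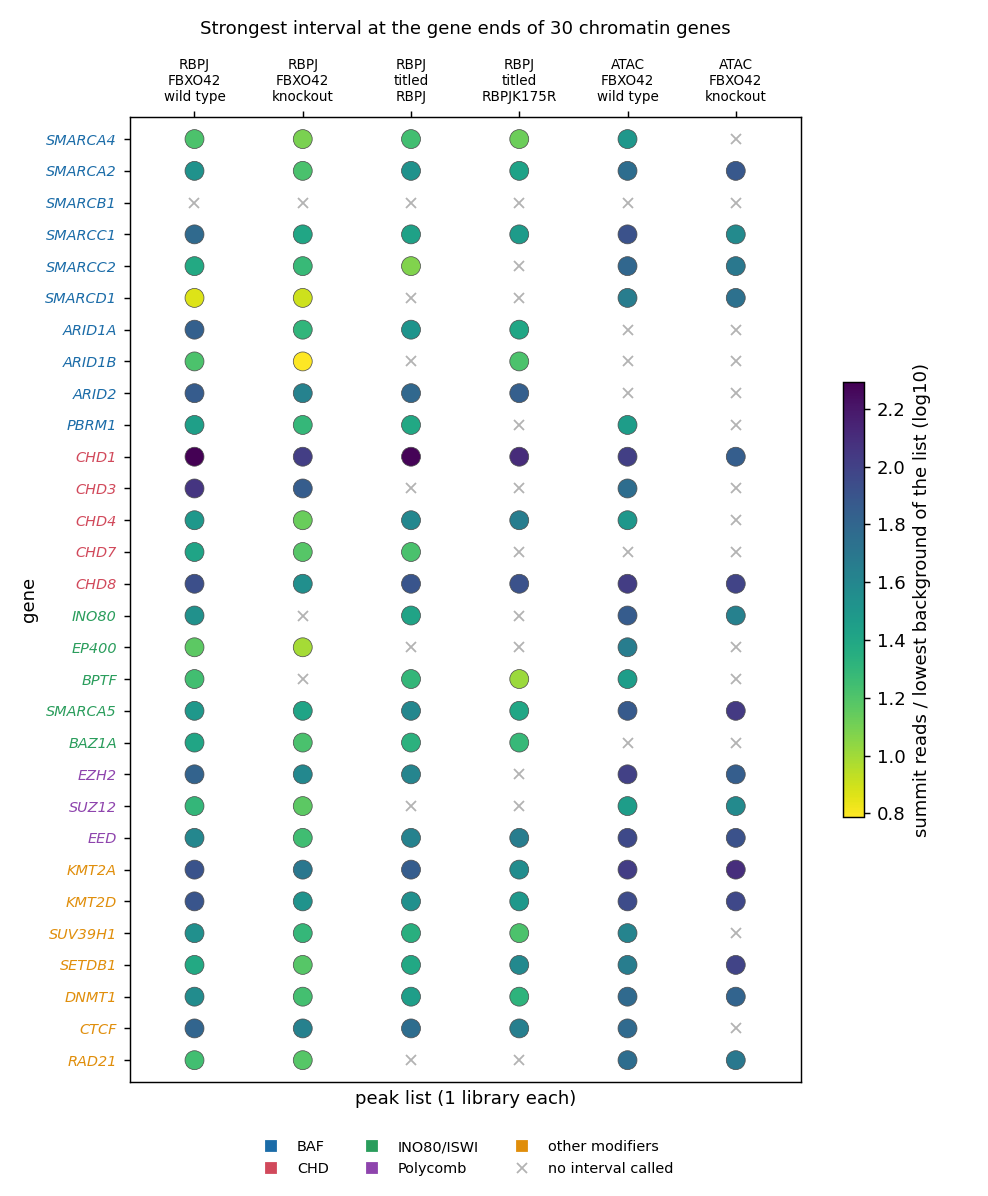
Strongest gene-end interval of each of the 30 genes (rows, coloured by family) in each of the 6 lists (columns, 1 library each). Darker points mean more reads at the summit relative to the lowest background of the list (log10 scale), and crosses mean that no interval was called. CHD1 is darkest in the RBPJ lists, and SMARCB1 has crosses throughout.

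For RBPJ in FBXO42 wild type and knockout, nearly all members had an interval in both libraries, and its summit held fewer reads in the knockout at nearly all of them. 29 of 30 members were called in wild type, where the share over all protein-coding genes was 54.2%. In the knockout 27 were called, against 41.0% of all genes. The wild-type list alone called BPTF and INO80 (17.4% of all genes), and 0 members in the knockout only (4.27% of all genes). Of the genes called in wild type, 6.90% of members and 32.1% of all genes had no knockout interval.

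The depth-scaled ratio used from here on is the number of reads at the summit of the strongest interval in the second list over the first, after each was divided by the lowest background of its list. Its 95% interval is an exact conditional one and covers counting error only, not variation between cultures or libraries. Over the 27 members called in both lists the median ratio was 0.590, and over the 7367 genes called in both it was also 0.590. The summit was lower in the knockout at 26 of 27 members (89.8% of all genes), with the counting interval entirely below 1 at 17 (59.0%) and entirely above 1 at 0 (0.570%). The ratio was lower by 2-fold or more at 9 members (32.0%) and higher by 2-fold or more at 0 (0.516%). The members' ratios thus sat at the level of the whole list. The strongest intervals of the 2 libraries overlapped at 24 of the 27 members (86.8% of all genes), with SMARCD1, CHD4 and CHD8 the exceptions. Fewer RBPJ molecules per site, fewer cells with a bound site and a weaker enrichment of the library cannot be told apart in these data.

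Among the BAF genes, 9 of 10 were called in both RBPJ libraries, with a median ratio of 0.589. The widest interval of any member was at ARID1A, which encodes the DNA-binding subunit of canonical BAF. It held 122 summit reads over 4028 bp in wild type and 33 reads over 654 bp in the knockout, a ratio of 0.294 (0.194 to 0.435), the lowest of all members. The 2 summits at ARID1A were not at the same place: the wild-type summit lay 3054 bp from the knockout one, and the narrow knockout interval covered only the part next to the ARID1A start. Both intervals also came within 1 kb of an annotated end of LOC124900417. Depth-scaled summit reads at LOC124900417 were 68.88 in wild type and 39.25 in the knockout, against 68.88 and 20.24 at ARID1A. The knockout thus held a stronger interval at LOC124900417 that the ARID1A windows did not reach. The low ARID1A ratio compares different summits and depends on this window. Its paralogue ARID1B held 29 and 10 reads at intervals of 959 and 978 bp (0.375, 0.163 to 0.791). SMARCD1, an accessory subunit, gave the highest ratio of the family, 1.09 (0.464 to 2.54), from 13 reads in each list, but at opposite ends of the gene, so no site of SMARCD1 was called in both.

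The other BAF genes lay between these. The alternative ATPases SMARCA4 and SMARCA2 held 29 and 60 reads in wild type and 20 and 27 in the knockout, with ratios of 0.749 (0.402 to 1.37) and 0.489 (0.298 to 0.782). The SMARCA2 interval was 2639 bp wide in wild type and 600 bp in the knockout. The scaffold subunits SMARCC1 and SMARCC2 held 106 and 43 reads in wild type and 41 and 31 in the knockout, with ratios of 0.420 and 0.783. The counting interval was below 1 for SMARCA2 and SMARCC1 and included 1 for SMARCA4 and SMARCC2. ARID2 and PBRM1, which define the PBAF form of the complex, held 129 and 50 reads in wild type and 70 and 32 in the knockout (0.589 and 0.695).

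The 2 members with the most RBPJ summit reads were both CHD genes. CHD1, a remodeller tied to transcribing genes, held 347 reads over 2740 bp in wild type and 171 reads over 1838 bp in the knockout, a ratio of 0.535 (0.443 to 0.645). CHD3, an ATPase of the NuRD repressor complex, held 203 and 116 reads and gave the highest CHD ratio, 0.621 (0.490 to 0.783). Its interval kept its width, at 3821 and 3829 bp. It also reached the annotated end of NAA38, so either gene could be its owner. The lowest CHD ratios were those of CHD8 and CHD4.

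CHD8, related to CHD7, gave 0.420 from its strongest intervals, and CHD4, the other NuRD ATPase, gave 0.434 (0.252 to 0.724). Taken site by site, the CHD8 end shared with SUPT16H held 150 reads in wild type and 57 in the knockout (0.413, 0.299 to 0.563). The opposite CHD8 end held 110 and 58 reads (0.573, 0.409 to 0.794). Both ends were thus lower in the knockout. At CHD4 the strongest wild-type interval, with 55 reads, lay at the end shared with NOP2 and had no knockout counterpart. The opposite end held 15 reads over 488 bp in wild type and 22 reads over 2034 bp in the knockout, a ratio of 1.59 (0.790 to 3.30), so the sign of the CHD4 difference depends on the site. CHD7, which is mutated in CHARGE syndrome, held 46 reads over 537 bp and 25 reads over 858 bp (0.590, 0.348 to 0.981).

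The INO80/ISWI family held both members that were called in wild type only. BPTF, the large subunit of NURF, had a wild-type interval of 567 bp with 31 summit reads and a fold of 6.58 over its local background. This interval lay at the lower end of BPTF, and the nearest knockout interval was 59205 bp from that end. From the opposite end the nearest knockout interval was 8176 bp away. INO80, the ATPase of the complex of that name, had 61 reads over 667 bp in wild type but a fold of only 3.77, because its local background was 15.5 reads. The nearest knockout interval to INO80 was 1455 bp from the gene end, just outside the 1 kb window, so with a 2 kb window INO80 counted as called in both.

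The 3 remaining INO80/ISWI genes were called in both libraries, with a median ratio of 0.668. SMARCA5, the main ISWI ATPase, gave the highest ratio, 0.829 (0.541 to 1.26), from 55 and 42 reads, while its interval was 1049 bp in wild type and 576 bp in the knockout. BAZ1A, a partner of SMARCA5, gave the lowest, 0.652 (0.389 to 1.07), from 45 and 27 reads. Its overlapping intervals had summits at different places, chr14:34875064 in wild type and chr14:34873755 in the knockout. EP400, an ATPase that works with a histone acetyltransferase complex, held 26 and 16 reads (0.668, 0.335 to 1.29). The counting interval included 1 at each of these 3 genes.

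All 3 Polycomb genes were called in both libraries, and all 3 intervals were lower and narrower in the knockout. EZH2, the methyltransferase of a Polycomb repressive complex, held 117 reads over 3176 bp in wild type and 63 reads over 914 bp in the knockout (0.585, 0.424 to 0.801). EED, which reads the mark that EZH2 writes, gave the lowest ratio, 0.45 (0.281 to 0.703), from 70 reads over 1721 bp and 29 reads over 1358 bp. SUZ12, their structural partner, gave the highest, 0.745 (0.424 to 1.29), from 35 reads over 1235 bp and 24 reads over 608 bp. The counting interval was below 1 at EZH2 and EED and included 1 at SUZ12.

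The 7 other modifiers were all called in both libraries, and all 7 had a ratio below 1, with a median of 0.615. KMT2D, which methylates histones at enhancers, gave the lowest ratio, 0.419 (0.30 to 0.577). It held 140 reads over 2852 bp in wild type and 54 reads over 1136 bp in the knockout, at the promoter printed above. RAD21, a cohesin subunit, gave the highest ratio, 0.876 (0.496 to 1.53), from 31 and 25 reads. KMT2A, the related enzyme of active promoters, held 143 and 81 reads (0.615) and CTCF held 113 and 71 (0.682, 0.50 to 0.926). DNMT1 held 65 and 28 reads (0.468), and the histone methyltransferases of silent chromatin, SUV39H1 and SETDB1, held 62 and 43 reads in wild type and 32 and 25 in the knockout (0.561 and 0.631). The SETDB1 interval was lower in reads but wider, at 1742 bp in wild type and 3867 bp in the knockout.

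Interval width showed the same side for most members. 20 of the 27 members called in both libraries had the narrower interval in the knockout, 74.1%, which equals the 74.1% of all genes. The median width ratio was 0.789 for members and 0.747 for all genes. In wild type the strongest intervals of the members had a median width of 1721 bp and a median of 60 reads, against 1185 bp and 41 reads over all genes; these medians cover every gene called in wild type, with or without a knockout interval. ARID1A, SMARCA2, EZH2 and KMT2D had the lowest width ratios, from 0.162 to 0.398. SETDB1, CHD7 and CHD4 had the highest, from 2.22 down to 1.51.

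**Figure D2:**
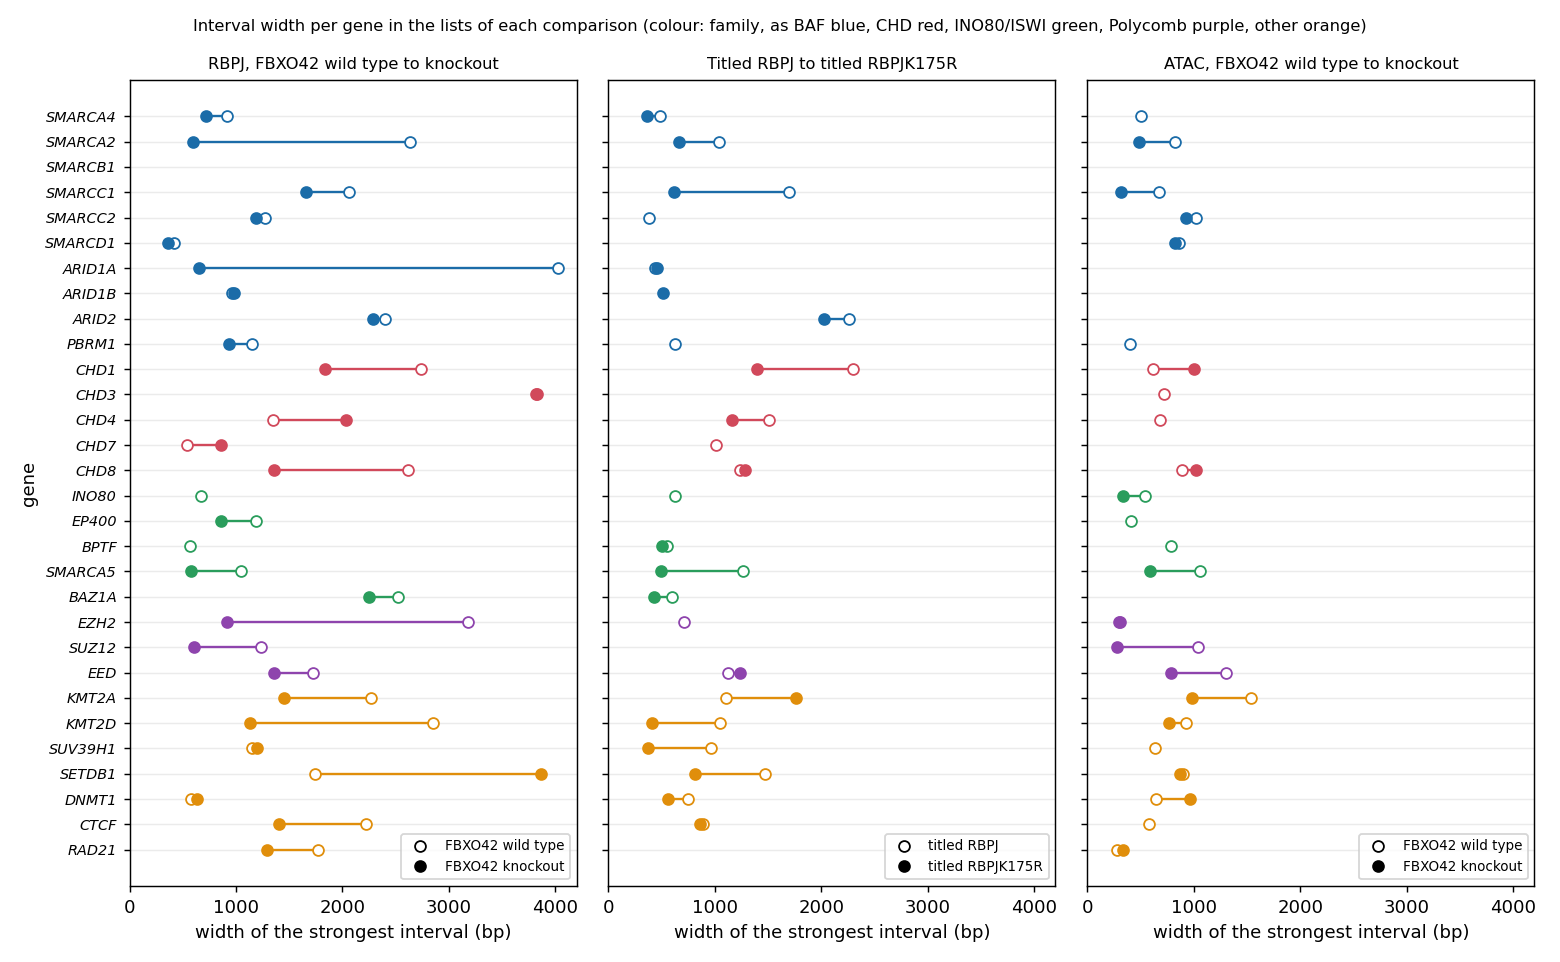
Width in bp of the strongest gene-end interval of each gene in the first list (open circles) and the second list (filled circles) of the 3 comparisons, with 1 library per list and lines joining genes called in both. In the left panel ARID1A runs from 4028 to 654 bp and SETDB1 from 1742 to 3867 bp. A row with no circle means that no interval was called.

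For RBPJ against RBPJK175R, both in FBXO42 knockout HEK293T, fewer members had an interval than in the previous pair, and the summits at those shared were closer to equal after depth scaling. 23 of 30 members were called in the list titled RBPJ (38.2% of all genes) and 19 in the list titled RBPJK175R (29.3%). SMARCC2, PBRM1, CHD7, INO80 and EZH2 were called only with RBPJ (13.6% of all genes), and ARID1B only with RBPJK175R (4.63%). Of the genes called with RBPJ, 21.7% of members and 35.5% of all genes had no RBPJK175R interval. SMARCB1, SMARCD1, CHD3, EP400, SUZ12 and RAD21 were called in neither, and 18 of the 30 members were called in both (24.6% of all genes). The list titled RBPJK175R had a read depth of about 55.0% of the other, which touches every count of missing intervals here, and its part in them was not tested.

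Over the 18 members called with both, the median depth-scaled ratio of RBPJK175R over RBPJ was 0.780, against 0.936 over 4938 genes. The ratio was below 1 at 12 of 18 members (59.2% of all genes). The counting interval was below 1 at CHD1 and KMT2A only (12.6% of all genes) and above 1 at 0 members (3.28%). Keeping only intervals that reach a −log10 q of 10 gave a median of 1.08, so the side of the median depends on which intervals are kept. No member was lower or higher by 2-fold or more (5.57% and 1.48% of all genes were). The strongest intervals overlapped at all 18 (91.1% of all genes).

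In the BAF family, 5 genes were called with both forms of RBPJ. ARID2 gave the highest ratio, 1.13 (0.769 to 1.64), from 78 and 47 reads, and SMARCA4 the lowest, 0.766 (0.311 to 1.73), from 22 and 9 reads. SMARCA2, SMARCC1 and ARID1A held 43, 34 and 41 reads with RBPJ and 18, 20 and 17 with RBPJK175R (0.784, 1.10 and 0.776). None of the 5 counting intervals excluded 1. PBRM1 was called with RBPJ only, at 31 reads over 621 bp and a fold of 8.72. The SMARCC2 interval, with 15 reads over 377 bp and a fold of 5.01, was called with RBPJ only and lay at the lower end of the gene beside MYL6, whereas the intervals of SMARCC2 in the other lists lay at the opposite end. ARID1B was called with RBPJK175R only, at 11 reads over 513 bp and a fold of 4.85.

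CHD1 again had the highest summit of any member. It held 241 reads over 2295 bp with RBPJ and 86 reads over 1396 bp with RBPJK175R, a ratio of 0.668 (0.516 to 0.858), the lowest of its family. CHD4 gave the highest, 1.16 (0.717 to 1.85), from 50 and 31 reads, and CHD8 held 99 and 55 (1.04, 0.734 to 1.46). CHD7 was called with RBPJ only, at 21 reads over 1015 bp and a fold of 3.61. CHD3, the second-highest member in the pair of libraries above, had no interval within reach of its ends here, although 1 and 2 intervals lay inside the gene. The nearest lay 1814 bp from a CHD3 end with RBPJ and 2404 bp with RBPJK175R, so its absence depends on the 1 kb window.

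In the INO80/ISWI family, all 3 genes called with both forms were lower with RBPJK175R after scaling, with every counting interval including 1. BPTF gave the lowest ratio, 0.524 (0.191 to 1.25), from 25 and 7 reads. BAZ1A gave the highest, 0.902 (0.427 to 1.81), from 27 and 13 reads, and SMARCA5 held 50 and 17 (0.637, 0.344 to 1.12). INO80 was called with RBPJ only, at 33 reads over 622 bp and a fold of 3.47, in front of a local background of 8.62 reads. BPTF, missing in the FBXO42 knockout list, was thus present in both of these FBXO42 KO lists, while INO80 was present in 1 of the 3 FBXO42 KO lists.

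Of the Polycomb genes only EED was called with both, at 54 reads over 1121 bp and 31 reads over 1233 bp (1.08, 0.668 to 1.70). EZH2 was called with RBPJ only, at 51 reads over 709 bp and a fold of 5.30, and it was the member with the most reads among those missing with RBPJK175R. The nearest RBPJK175R interval to EZH2 lay 56549 bp from an annotated end, with none inside the gene.

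Among the other modifiers 6 of 7 were called with both. KMT2A gave the lowest ratio of all members, 0.520 (0.320 to 0.818), from 90 and 25 reads, but its interval was wider with RBPJK175R, 1759 bp against 1109 bp. SETDB1 gave the highest ratio of all members, 1.57 (0.896 to 2.73), from 31 and 26 reads. KMT2D held 44 and 21 reads (0.894), CTCF 73 and 30 (0.770), DNMT1 36 and 14 (0.728) and SUV39H1 28 and 11 (0.736). Each of these 4 had a narrower interval with RBPJK175R and a counting interval that included 1. In all, 14 of 18 members were narrower with RBPJK175R (71.4% of all genes), and the median width ratio was 0.743 for members and 0.807 for all genes.

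**Figure D3:**
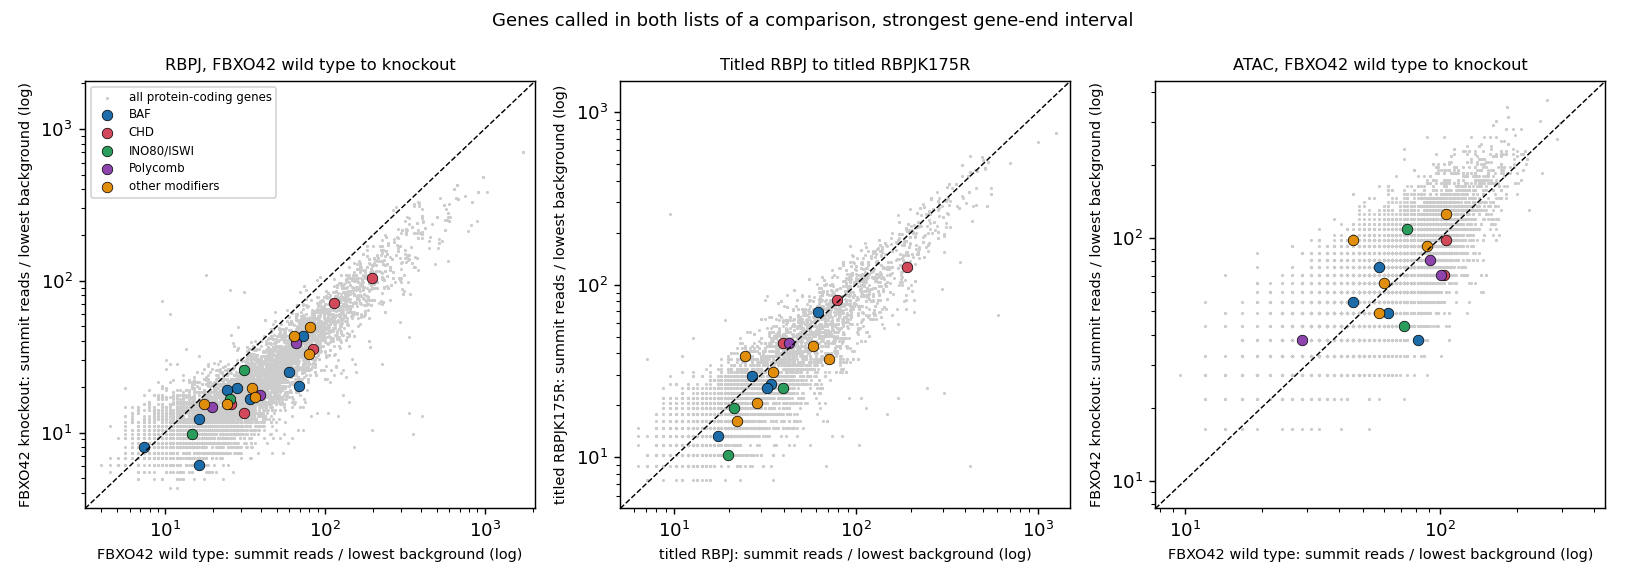
Summit reads divided by the lowest background of the list for genes called in both lists of a comparison, first list on the x axis and second list on the y axis, both logarithmic, with 1 library per list. Grey points are all protein-coding genes, coloured points are the members by family, and the dashed line marks equality. In the left panel 26 of 27 members lie below the line, in the middle panel 12 of 18 and in the right panel 8 of 16.

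For ATAC in cells labelled Jurkat, a larger share of the members than in the RBPJ pairs had an interval in wild type only. 24 of 30 members were called in FBXO42 wild type (56.3% of all genes) and 16 in FBXO42 knockout (42.7%). SMARCA4, PBRM1, CHD3, CHD4, EP400, BPTF, SUV39H1 and CTCF were called in wild type only (15.1% of all genes), and 0 members in the knockout only (1.45%). Of the genes called in wild type, 33.3% of members and 26.8% of all genes had no knockout interval. SMARCB1, ARID1A, ARID1B, ARID2, CHD7 and BAZ1A were called in neither ATAC list, although all but SMARCB1 had RBPJ intervals in HEK293T. The 16 knockout members were called in both lists (41.3% of all genes). These counts depend on the window: at 2 kb, 27 members were called in wild type and 18 in the knockout.

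The members missing in the knockout had few reads in wild type. Their summits held 12 to 25 reads with a median of 15, whereas those of the 16 members called in both held 12 to 44 with a median of 30.5. The knockout list had a read depth of about 42.4% of the wild-type list, and its part in the missing intervals was not tested. Over the 16 members called in both, the median depth-scaled ratio was 0.982, against 1.13 over 8269 genes. 8 of the 16 were lower in the knockout (33.7% of all genes) and 8 higher. The median moved to between 1.04 and 1.32 with stricter intervals, a wider window or starts only, so no side can be given for the members as a group. The counting interval was below 1 at 0 members (0.423% of all genes) and above 1 at SETDB1 alone (5.21%). SMARCC1 was lower by 2-fold or more (0.931% of all genes) and SETDB1 higher by 2-fold or more (4.47%), and the strongest intervals overlapped at 15 of 16 (95.1%).

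Among the BAF genes, SMARCC1 had the lowest ATAC ratio of any member, 0.466 (0.174 to 1.07), from 34 reads over 674 bp in wild type and 7 reads over 316 bp in the knockout. SMARCA2 gave the highest of the family, 1.32 (0.631 to 2.66), from 24 and 14 reads. SMARCC2 held 26 and 9 reads (0.783) and SMARCD1 held 19 and 10 (1.19). No BAF counting interval excluded 1. SMARCA4 was called in wild type only, at 13 reads over 500 bp and a fold of 5.89, as was PBRM1, at 12 reads over 404 bp and a fold of 6.08, in an interval that also reached GNL3.

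CHD1 and CHD8 were the CHD genes called in both ATAC lists. CHD1 held 43 reads over 621 bp in wild type and 13 reads over 1000 bp in the knockout (0.684, 0.337 to 1.3), and CHD8 held 44 and 18 (0.925, 0.503 to 1.63). CHD3 was called in wild type only, at 24 reads over 717 bp and a fold of 4.34, and CHD4 likewise, at 13 reads over 680 bp and a fold of 4.03. Both CHD1 and CHD8 had a wider interval in the knockout, against 82.4% of all genes with a narrower one. At CHD1 the wild-type list had 2 intervals, of 265 and 621 bp, and the knockout interval overlapped both. Its width was compared with the stronger of them only.

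In the INO80/ISWI family the remodelling ATPases INO80 and SMARCA5 were called in both. INO80 held 30 and 8 reads (0.603, 0.239 to 1.35) and SMARCA5 held 31 and 20 (1.46, 0.788 to 2.64). Their counting intervals overlapped and both included 1. EP400 was called in wild type only, at 19 reads over 411 bp and a fold of 6.44. BPTF was called in wild type only as well, at 12 reads over 783 bp and a fold of 5.90, as it had been for RBPJ in HEK293T. INO80, missing for RBPJ in the FBXO42 knockout, kept an ATAC interval in the knockout.

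The 3 Polycomb genes were called in both ATAC lists, with narrower intervals in the knockout. EZH2 gave the lowest ratio, 0.70 (0.345 to 1.33), from 42 and 13 reads at intervals of 307 and 301 bp. SUZ12 gave the highest, 1.32 (0.440 to 3.64), from 12 and 7 reads at intervals of 1035 and 278 bp. EED held 38 and 15 reads (0.893, 0.456 to 1.66). All 3 counting intervals included 1 and reached below 0.50, so a knockout summit at 0.50 of the wild-type level was not excluded at this depth.

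Among the other modifiers, SETDB1 held 19 reads in wild type and 18 in the knockout, a ratio of 2.14 (1.06 to 4.31), the highest of all members. RAD21 gave the lowest of the family, 0.848 (0.347 to 1.89), from 24 and 9 reads. KMT2A and KMT2D held 44 and 37 reads in wild type and 23 and 17 in the knockout (1.18 and 1.04), and DNMT1 held 25 and 12 (1.09). At KMT2D the strongest intervals lay at opposite ends, and the promoter end alone held 37 and 17 reads. CTCF was called in wild type only, at 25 reads over 576 bp and a fold of 7.16, as was SUV39H1, at 17 reads over 639 bp and a fold of 7.29. 12 of the 16 members called in both lists were narrower in the knockout (82.4% of all genes). The median width ratio was 0.870 for members and 0.749 for all genes.

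Across the 3 comparisons SETDB1 lay above the median of all genes each time. Its RBPJ ratio from FBXO42 wild type to knockout was 0.631, its ratio from RBPJ to RBPJK175R was 1.57, and its ATAC ratio was 2.14, where the medians over all genes were 0.590, 0.936 and 1.13. Its counting interval was above 1 only in ATAC (1.06 to 4.31), and there it included the median of all genes. CHD1 was below 1 and below the median of all genes in all 3, at 0.535, 0.668 and 0.684, with the counting interval below 1 in both RBPJ comparisons. KMT2D (0.419, 0.894 and 1.04) and DNMT1 (0.468, 0.728 and 1.09) were also below the median of all genes in all 3. No share of all genes with such a pattern is given here. The CHD1 counting interval lay below the median of all genes only for RBPJ to RBPJK175R (0.516 to 0.858). It included that median for RBPJ from FBXO42 wild type to knockout (0.443 to 0.645) and for ATAC (0.337 to 1.3). The first and the last comparison carry different cell line labels, and differences between comparisons were not tested.

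The span of the RBPJ summits was measured at the 16 members with overlapping intervals in all 4 RBPJ lists. Its median was 184.5 bp. No span over all genes stands beside these values, so no trait of the members is read from them. At 5 of the 16 the summits lay within 100 bp, with KMT2A the tightest at 44 bp and ARID1A the loosest at 3054 bp. PBRM1 had its summit at 2 neighbouring positions, 1 bp apart, in the 3 RBPJ lists that called it. In wild type the member summits with a listed start had a median position of -222.5 bp from that start, and 45.5% lay within 300 bp of it, against 60.2% over all genes. In the other RBPJ lists this share was higher for members than for all genes, at 61.9% against 51.6% in FBXO42 knockout, 76.5% against 58.2% with RBPJ and 60.0% against 49.4% with RBPJK175R. Between 17.6% and 33.3% of member summits lay downstream of the start in the 4 RBPJ lists, against 42.6% to 50.2% of all genes.

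**Figure D4:**
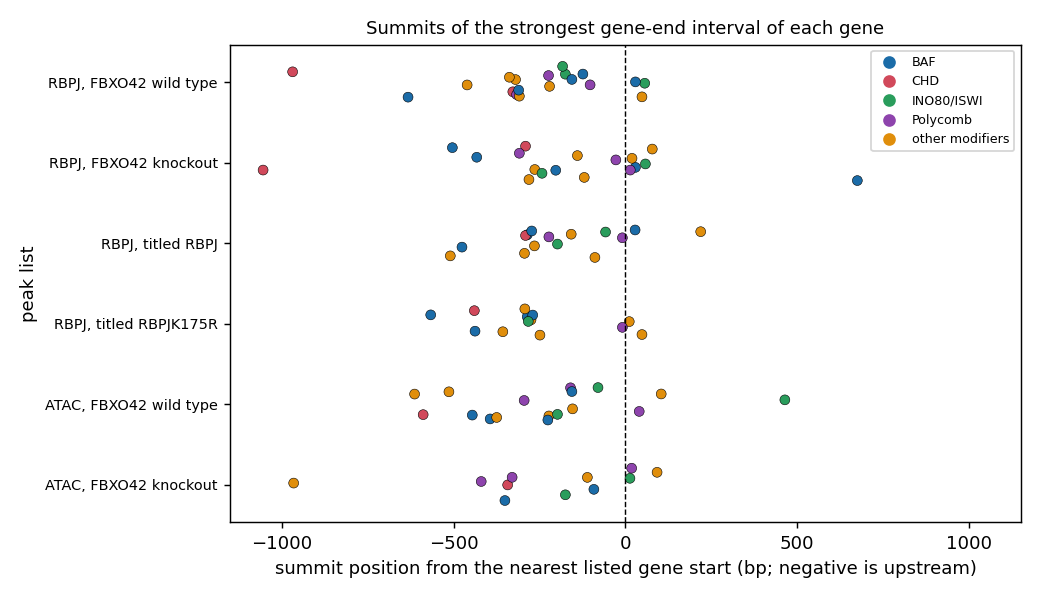
Position of the summit of the strongest gene-end interval relative to the nearest listed gene start (bp, negative values upstream) for the members with a RefSeq promoter entry, in each of the 6 lists (1 library each). Points are coloured by family and spread vertically only for legibility. Most points lie between the start and about 500 bp upstream; 2 or 3 summits per list lie beyond the axis and are not drawn.

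In FBXO42 wild type the RBPJ intervals of HEK293T and the ATAC intervals of cells labelled Jurkat coincided at most members. Of the 24 members called in both, 22 had overlapping strongest intervals (8530 of 9261 genes over all protein-coding genes), and at 11 the ATAC interval lay wholly inside the RBPJ interval. The summits were a median of 258 bp apart. Neither this distance nor the count of 11 has a value over all genes beside it, so neither is read as a trait of the members. SMARCA5 and EZH2 had the nearest summits, 15 and 22 bp apart. CHD4 and CHD8 were the 2 without overlap, because their strongest RBPJ and ATAC intervals lay at different sites. ARID1A, ARID1B, ARID2, CHD7 and BAZ1A had an RBPJ interval and no ATAC interval within 1 kb of their ends. Of the 29 members called for RBPJ, 24 were thus also called in ATAC, against 9261 of 10852 genes. The nearest wild-type ATAC interval lay 1877 bp from an end of ARID1A, 1646 bp from ARID2 and 1372 bp from BAZ1A, just outside the window. At ARID1B and CHD7 it lay 3950 and 5822 bp away.

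Some member intervals also reached the end of another gene and cannot be assigned to one of them. In the RBPJ wild-type list this held for 7 of 40 member intervals (17.5%), against 19.9% of all gene-end intervals that reached 2 or more genes. The pairs at the strongest intervals were CHD8 with SUPT16H, CHD4 with NOP2, PBRM1 with GNL3, CHD3 with NAA38 and ARID1A with LOC124900417.

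115 further subunits and partners of the same complexes were counted in the same way. For RBPJ in FBXO42 wild type and knockout, 91 and 75 of them were called (54.2% and 41.0% of all genes), with 71 in both (36.8%), 20 in wild type only (17.4%) and 4 in the knockout only (4.27%). The median ratio of the 71 was 0.538. In wild type only, the highest folds were those of BRD7 (4.29), DPF3 (3.34) and SMARCE1 (2.55) among BAF subunits, CHD6 (6.65), MBD2 (5.05) and MTA1 (3.80) in the CHD and NuRD group, and EPC2 (7.97), EPC1 (5.72) and NFRKB (4.23) in the INO80/ISWI group. Polycomb partners were led by CBX2 (12.3), YAF2 (5.50) and RYBP (5.04), and the other modifiers by DPY30 (8.64), TET1 (5.56) and PDS5B (3.72). These are folds over local background in the wild-type list, as the authors gave them.

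With RBPJ and RBPJK175R, 66 and 48 of the 115 were called (38.2% and 29.3% of all genes), 44 in both (24.6%), 22 with RBPJ only (13.6%) and 4 with RBPJK175R only (4.63%), and the median ratio was 0.991. BCL7A (20.6), SMARCA1 (13.3), PCGF3 (11.9), NIPBL (7.77) and HDAC2 (4.87) had the highest folds of their families among those called with RBPJ only. In ATAC, 90 and 62 were called (56.3% and 42.7% of all genes), 60 in both (41.3%), 30 in wild type only (15.1%) and 2 in the knockout only (1.45%), with a median ratio of 1.06. Of the 24 Polycomb partners 17 were called in wild type and 7 in the knockout, while all 3 Polycomb members were called in both. PHC1 (6.91), PCGF6 (6.67) and PHC3 (6.64) had the highest folds among the 11 Polycomb partners called in wild type only.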

How the data were processed

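Peak lists of 6 libraries were analysed: 4 RBPJ CUT&Tag libraries from HEK293T and 2 ATAC libraries from cells labelled Jurkat, with groups from the sample titles and 1 library per group. Trim Galore, Bowtie2, MACS2, deepTools and build hg38 are named in the submitters' processing notes; the sources used here give no versions, thresholds or control per list, and no pooling of libraries is stated. Per interval, the authors deposited a fold (ratio of summit pileup to local background), the −log10 of p and of q, and a score of 10 times the −log10 q. These are the authors' values and were used only within a list. Folds and −log10 p together gave whole summit reads for 100% of intervals, within 0.1% of the −log10 p, with the list titled RBPJ scaled by 0.812.

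Intervals on chromosomes 1 to 22, X and Y were kept and duplicates counted once. Gene ends came from RefSeq, whose table of gene ends gave no strand, so the start and the other end were treated alike. Of several intervals at a gene the one with the most summit reads was used. Depth was scaled by the ratio of lowest backgrounds (the most frequent local background of each list), 0.921, 0.534 and 0.442 for the 3 comparisons. With 1 library per group no test was run; counts stand beside those over all 20037 protein-coding genes. Within each family, members called in 1 list only and those with the highest and lowest ratio are given in full. Up to 3 companion genes per family and comparison are named by fold. The members and lists were chosen with earlier results of these data known. Alternatives were the −log10 q, the window, the overlap, starts only and the scaling. The recovery was tested on simulated intervals. Python 3.11.15, pandas 2.3.3, numpy 2.4.6 and scipy 1.17.1 were used.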

Additional observations from a re-analysis of the deposited data

How the results depend on the processing

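Of 84 recomputed values over 15 counts and medians, 68 stayed on the same side and within 1.5 times for counts. No paired analysis was possible because each group has 1 library. For RBPJ from FBXO42 wild type to knockout, the members called in wild type only numbered 2 as reported, 7 at a −log10 q of at least 10 and 1 with a 2 kb window, and the median pileup ratio was 1.00 when scaled by the median of all genes. For RBPJ to RBPJK175R, a −log10 q of at least 10 left 9 members called in the second list and 8 called in the first list only, starts only left 3 in the first list only, and the median pileup ratio was 1.08 at a −log10 q of at least 10 and 0.417 without depth scaling. For ATAC, a −log10 q of at least 10 left 4 members in the knockout and 13 in wild type only, starts only left 5 in wild type only, and the median pileup ratio was 1.04 and 1.32 at a −log10 q of at least 5 and 10, 1.06 with a 2 kb window, 1.06 with starts only and 0.434 without depth scaling. Starts only and stricter q tested fewer genes or intervals. Leaving out depth scaling multiplied every ratio of a comparison by its background ratio. Scaling by the median of all genes set that median to the reference, so these shifts follow from the scaling itself. The cause of the remaining shifts was not tested. ATAC summits of 7 to 44 reads leave wide counting intervals.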
